A study of Mus musculus with 15 samples.

Results

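The comparison described here is that of the western diet (WD) with chow in CD45lo brain myeloid cells, the CD11b+ cells with a low surface level of the leukocyte antigen CD45, which is the usual sorting gate for microglia. Members were all libraries whose CD45 level is given as CD45lo, which are 8 of the 15 libraries of the series, 4 from WD-fed and 4 from chow-fed mice. The other 7 libraries are CD45hi cells (4 chow, 3 WD) and are used only for contrast. All 15 libraries came from wild-type C57BL/6J mice aged 12 months, and the mice used for sorting were males. No transgene, deletion or drug was involved, and diet is the factor that the labels give between the groups. The sequencing platform and the sorting day of each library are not given in the sources used here, and their part in any difference was not tested. The WD was a feed with high-fructose corn syrup, more milk fat and milk protein and less fibre than chow, given from early adulthood. Cells were released from perfused brain without the olfactory bulb and cerebellum by enzymes at body temperature, cleared of myelin, and sorted live for CD11b and CD45 with CD3e+ cells gated out, so the brain regions were mixed. The study describes its deposited counts as those of each animal, the labels give no animal for a library, and p-values measure the spread between these libraries.

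Microglia are the macrophages of the brain parenchyma. They depend on signalling through the colony stimulating factor receptor Csf1r and on TGF-beta, and in the healthy brain they carry a set of surface receptors (P2ry12, Cx3cr1, Tmem119) and transcription factors such as Sall1 known as the homeostatic programme. Around plaques and damaged myelin they lower that programme and take on the disease-associated one, which holds lipid and lysosomal genes such as Apoe, Lpl, Cst7 and Itgax. The question addressed was whether a diet that causes obesity moved the microglial transcriptome, and how large a change these libraries would leave unseen.

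Total expected counts ranged from 15100700 to 17912300 per chow library and from 12177600 to 16741200 per WD library, and a floor of 3 counts, which covers counting error only, equalled 0.170 to 0.250 on the cpm scale, the count scaled to a common library size. Total, number of detected genes, mitochondrial share, share of the 10 highest genes and the first 2 principal components were each compared between the diets by a two-sided exact permutation test. The smallest p was 0.114 (0.686 after Benjamini-Hochberg adjustment over the 6 measures), and 4 libraries against 4 cannot give a p under 0.0286. Chow library 3 and WD library 4 stood apart from the other 6 in the principal components, with more of the tested genes at 0 counts (427 and 356 against 100 to 212). Some results are also given without them, and values given only with them can still rest on them. The gate was met in the RNA: in chow-fed mice Ptprc, which encodes CD45, was 1.15 ± 0.14 (log2, SE) higher in CD45hi than in CD45lo libraries (edgeR false discovery rate, FDR, 4.27e-05), and all 10 microglial marker genes, whose median between the diets was -0.07, were tested in CD45lo libraries. P2ry12, Tmem119 and Sall1 were lower in CD45hi libraries by log2 values of -1.58, -1.19 and -1.20, and Ccr2, a monocyte receptor, was higher by 4.55. Itgam, which encodes CD11b, differed by -0.24 (FDR 0.212).

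The main result was an absence of calls between the diets in the main fit. Of 13911 genes tested, 0 (0%) passed an FDR of 0.05 between WD and chow, and the smallest FDR was 0.236. At an unadjusted p under 0.05, 281 genes (2.02%) were higher and 275 (1.98%) lower on the WD. DESeq2, run as an alternative, called 7 genes (0.0503%), 3 of them higher and 4 lower, and all 7 are described below. The median log2 fold change over all genes was 0.01, 51.0% of genes had a positive value, and the median size of the log2 fold change was 0.19. Groups of 4 libraries did not overlap in 343 genes, with every WD library above every chow library in 159 genes (1.14%) and below in 184 (1.32%).

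Since a missed threshold does not show that 2 groups are alike, each gene was also tested for a difference smaller than a stated limit, by a pair of one-sided quasi-likelihood tests with an FDR of 0.05. By this test 3550 genes (25.5%) were placed within 1.5-fold and 8446 (60.7%) within 2-fold of their chow level. The 95% interval of the fold change lay inside 1.5-fold limits in 4452 genes and inside 2-fold limits in 8234. How small a change could be bounded followed the level of expression. Of the 232 genes at 500 cpm or more, 217 (93.5%) were placed within 1.5-fold and 232 within 2-fold. The shares within 1.5-fold were 91.5% of 1687 genes at 100 to 500 cpm, 41.3% of 4286 genes at 20 to 100 cpm and 0.611% of 3603 genes at 5 to 20 cpm, and 0 of the 3108 genes at 1 to 5 cpm and of the 995 genes under 1 cpm. In the last of these classes the median 95% interval reached 5.79-fold to either side of the estimate, against 1.16-fold in the highest class. A diet change of 2-fold in a gene under 5 cpm was therefore not detectable at this depth and spread in most cases, whereas 97.4% of genes at 20 to 100 cpm were placed within 2-fold. These limits hold for the fit of the 8 CD45lo libraries. In a fit of all 15 libraries together, which share a wider spread, 1 gene was placed within 1.5-fold and 3493 within 2-fold.

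**Figure D1:**
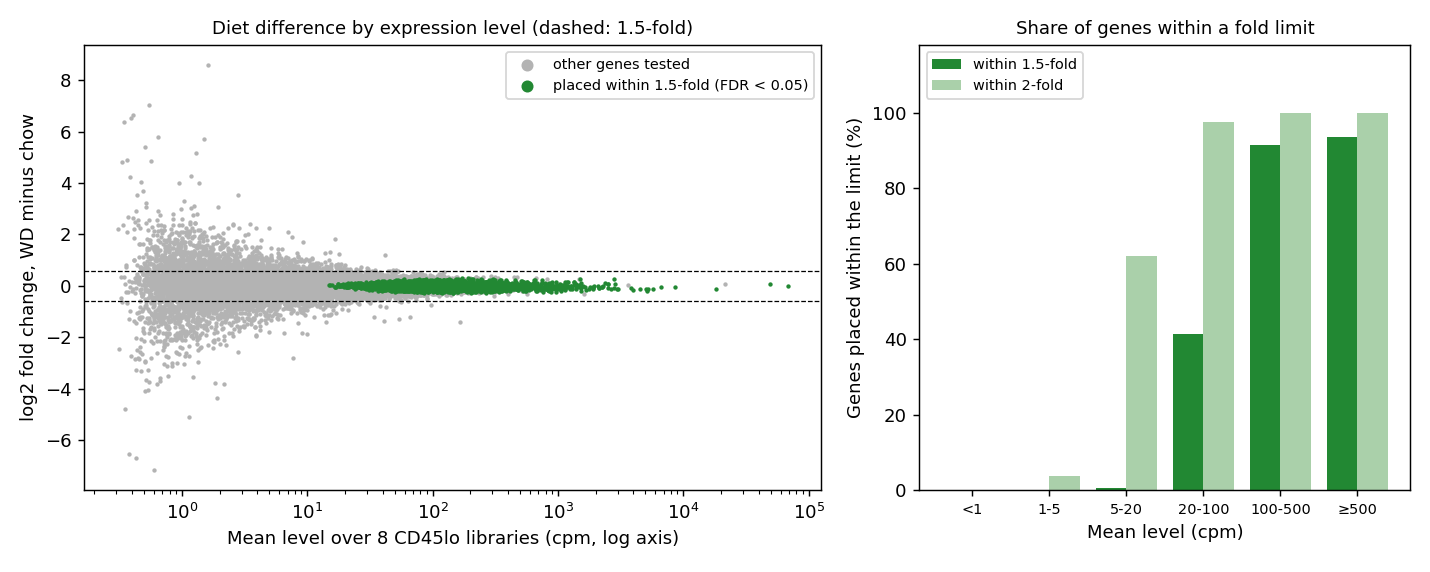
Left, log2 fold change of WD against chow (y) by mean level in cpm over 8 CD45lo libraries (x, log axis) for 13911 genes, with the 3550 genes placed within 1.5-fold in green and the 1.5-fold limits dashed. Right, percent of genes placed within 1.5-fold (dark) and 2-fold (light) by level, rising from 0 of 995 genes under 1 cpm to 93.5% and 100% at 500 cpm or more.

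Among the 232 highest genes, 15 were not placed within 1.5-fold. They include the immediate early genes Egr1, Jun, Dusp1 and Btg2, which are transcribed quickly on stimulation, and Marcks, Csf3r and Gpr34, which had p under 0.05. Marcks, a protein kinase C substrate of the cell cortex, had means of 1802 cpm on chow and 1458 cpm on the WD (log2 -0.31 ± 0.11, SE, 95% interval -0.55 to -0.07). Csf3r, the receptor for granulocyte colony stimulating factor, had 602 and 747 cpm (0.31 ± 0.12, 95% interval 0.06 to 0.56). The wide intervals of the immediate early genes came with large library-to-library spread: the summed level of the 24 immediate early and heat shock genes ran from 6691 to 13707 cpm over the chow libraries and from 7741 to 13141 cpm over the WD libraries.

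The homeostatic programme was bounded most closely of the gene lists described. All 20 genes of the list were tested, 0 passed the FDR, 19 were placed within 1.5-fold and 20 within 2-fold. The list is highly expressed, with a median level of 1220 cpm. Of all genes at 500 cpm or more, 93.5% were placed within 1.5-fold, so the count is near the share for that level. Their median log2 fold change was -0.05, against 0.01 over all genes, with 15 negative and 5 positive values between -0.33 and 0.05. P2ry12, the ADP receptor that guides microglial processes, was at 4369, 3935, 4101 and 4331 cpm in the chow libraries and at 4177, 3988, 3668 and 3106 cpm in the WD libraries. These groups overlapped, and the fold change had a 95% interval of 0.779 to 1.02. Tmem119 was at 1158 to 1506 cpm on chow and 1106 to 1358 cpm on the WD, with an interval of 0.843 to 1.15. The transcription factor gene Sall1 had means of 827 ± 79.6 (SD, n = 4) and 782 ± 71.8 cpm and was placed within 1.5-fold, as were the receptor kinase Mertk, the TGF-beta receptor Tgfbr1 and the lectin Siglech.

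Over all genes, every WD library was above every chow library in 1.14% and below in 1.32%. Of the 20 homeostatic genes 1 had groups that did not overlap, Csf1r, on which microglia depend for survival. Its levels were 4594, 5222, 4564 and 4701 cpm on chow and 4482, 4049, 4450 and 4350 cpm on the WD. Every WD library was below every chow library, by a log2 fold change of -0.14 ± 0.07 (SE, 95% interval -0.29 to 0.02), and Csf1r was still placed within 1.5-fold. Its gene shares 873 of 5774 exonic bases with Hmgxb3 on the opposite strand, which the library kit does not separate, and Hmgxb3 was at about 20 cpm (19.2 on chow and 21.2 on the WD). The gene not placed within 1.5-fold was Gpr34, a lysophosphatidylserine receptor, at 540, 701, 562 and 741 cpm on chow and 481, 537, 602 and 410 cpm on the WD. Its log2 fold change was -0.33 ± 0.14 (95% interval -0.62 to -0.03), and it was within 2-fold. Trem2 (267 ± 26.7 and 275 ± 34.7 cpm) and its adaptor Tyrobp (515 ± 44.0 and 511 ± 18.7 cpm) were both within 1.5-fold.

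On the deposited TPM scale, which divides by transcript length and so lets genes be compared, the mean chow levels were 3707 TPM for P2ry12, 2257 for Tyrobp and 2214 for Csf1r, and the lysosomal protease gene Ctss stood above them with 7956 TPM. The WD means were 3332, 2243, 2020 and 7400 TPM in the same order. The order of the 4 genes by level was therefore Ctss, P2ry12, Tyrobp, Csf1r on either diet. Tyrobp and Csf1r lay close together on chow, and differences between neighbours in this order were not tested.

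The counts for the homeostatic list did not turn on single libraries. With each of the other 7 libraries left out in turn 19 of its 20 genes were placed within 1.5-fold, and without WD library 4 all 20 were. This library had the lowest summed level of the 10 microglial markers, 17472 cpm, against 20588 to 21539 cpm in the other WD libraries and 20855 to 22277 cpm in the chow libraries. In a fit of all 15 libraries together, where CD45hi libraries widen the shared estimate of spread, 0 of the 20 were placed within 1.5-fold and 20 within 2-fold.

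**Figure D2:**
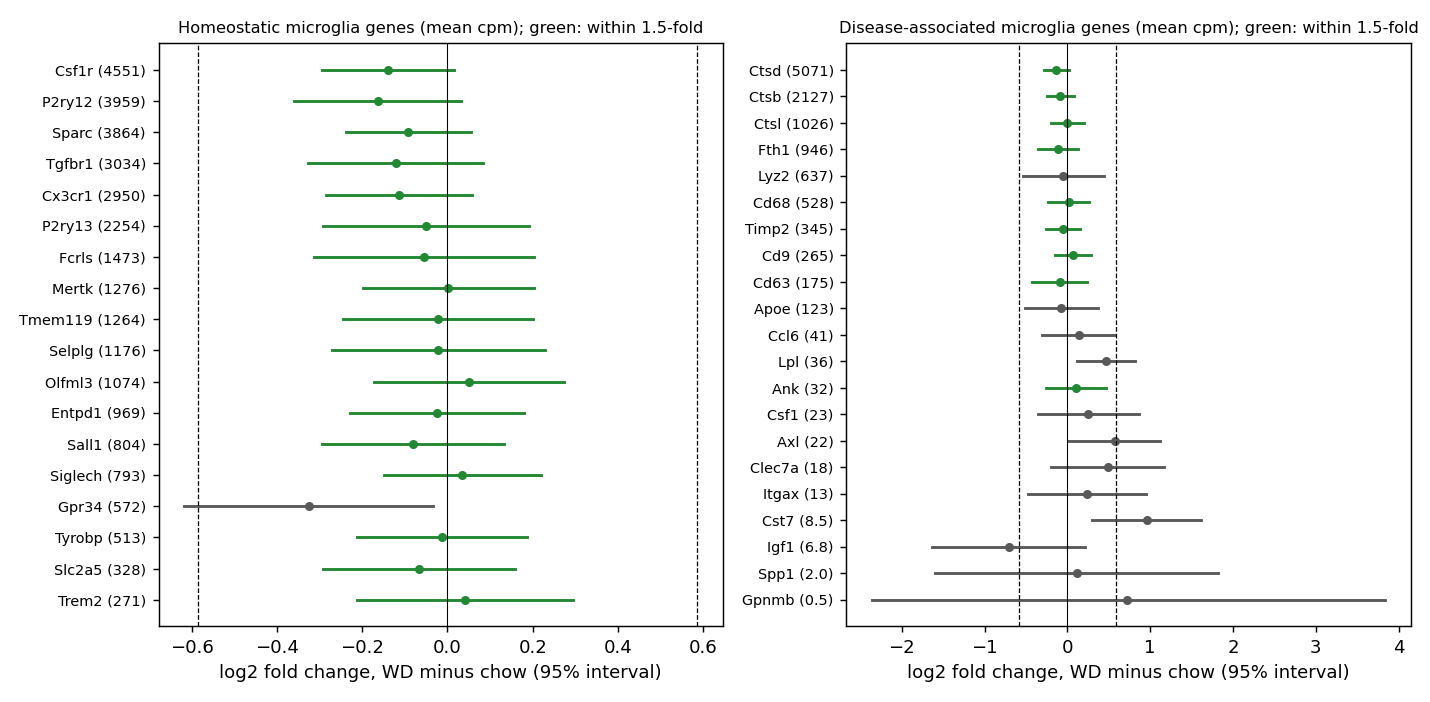
Log2 fold change of WD against chow with its 95% interval (x) for 18 of the 20 homeostatic genes (left) and the 21 tested disease-associated genes (right), ordered by mean cpm given after each name, with 1.5-fold limits dashed and genes placed within 1.5-fold in green. Of the homeostatic genes drawn 17 are green and Gpr34 is not, and 9 of the disease-associated genes are green. The lists differ in median level, 1220 cpm against 41 cpm. Of all genes, 93.5% at 500 cpm or more and 41.3% at 20 to 100 cpm were placed within 1.5-fold.

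In the disease-associated list 0 genes passed the FDR. Of its 22 genes 21 were tested, 3 were higher on the WD at an unadjusted p under 0.05, as were 2.02% of all genes, and 0 were lower, and 9 were placed within 1.5-fold and 15 within 2-fold. The median was 0.07, with 12 positive and 9 negative values between -0.71 and 0.96. The median level of the list was 41 cpm. Of all genes at 20 to 100 cpm 41.3% were placed within 1.5-fold, so the count of 9 is near the share for that level. Cst7, an inhibitor of lysosomal cysteine proteases, was at 4.67, 4.26, 7.23 and 7.04 cpm on chow and 8.99, 15.6, 10.4 and 10.1 cpm on the WD. All WD libraries were above all chow libraries, with a log2 fold change of 0.96 ± 0.31 (95% interval 0.30 to 1.62, edgeR FDR above 0.99). Lpl, the lipoprotein lipase that frees fatty acids from lipoproteins, was at 33.3, 30.4, 25.5 and 33.1 cpm on chow and 38.7, 40.5, 46.3 and 43.6 cpm on the WD. Here too the groups did not overlap, and the log2 fold change was 0.47 ± 0.16 (95% interval 0.12 to 0.82).

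Axl, a receptor for the engulfment of dying cells, had 19.4, 14.4, 25.1 and 13.2 cpm on chow and 19.1, 35.1, 27.2 and 25.9 cpm on the WD, so that the groups overlapped (0.57 ± 0.26, 95% interval 0.02 to 1.12). Other members that mark the programme did not pass p under 0.05, with wide intervals: Clec7a had a log2 fold change of 0.49 (95% interval -0.20 to 1.17), Itgax 0.24 (-0.47 to 0.96) and Spp1 0.11 (-1.59 to 1.81). Apoe, at 123 cpm over all libraries, had -0.07 (-0.52 to 0.37). The members placed within 1.5-fold were mostly the highly expressed ones, such as Ctsd, Ctsb, Fth1 and Cd9. Ctsd, the lysosomal protease cathepsin D, was at 5304 ± 307 cpm on chow and 4838 ± 264 cpm on the WD.

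Lists of metabolic genes were examined because the diet is rich in fat and sugar. The 26 genes of cholesterol synthesis had a median of -0.14, with 16 negative values, and 1 was lower at p under 0.05. That gene was Lss, which closes the sterol ring from squalene epoxide, at 21.3, 19.3, 15.3 and 17.2 cpm on chow and 8.14, 12.9, 9.07 and 13.2 cpm on the WD. The groups did not overlap and the log2 fold change was -0.76 ± 0.24 (95% interval -1.29 to -0.23). The same list's median was -0.30 without WD library 2 and -0.06 without chow library 4.

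The cholesterol efflux and LXR target list (15 tested) had a median of -0.01 with 0 genes at p under 0.05 in either direction, and Abca1, the cholesterol exporter, was placed within 1.5-fold (684 ± 74.3 and 648 ± 84.5 cpm). Medians were -0.12 for fatty acid synthesis and storage (22 tested, 0 at p under 0.05), -0.16 for lipid uptake (10 tested, with Lpl higher) and -0.09 for fatty acid oxidation and PPAR targets (21 tested). In the last list Slc25a20, the carnitine carrier of the mitochondrial membrane, was higher at p under 0.05, with means of 12.9 ± 3.29 and 21.3 ± 4.43 cpm (0.73 ± 0.25, 95% interval 0.19 to 1.27). The sign of the medians for lipid uptake and fatty acid oxidation turned under some settings, to 0.02 and 0.05. In the fatty acid synthesis and storage list 17 of 22 values were negative. Every WD library was below every chow library in 2 of its genes, and in 1.32% of all genes. Its summed level was 923 to 1031 cpm on chow and 875 to 917 cpm on the WD, without overlap. The difference between these sums was not tested.

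Genes for fructose and glucose use did not stand apart. Of 23 tested, 11 were placed within 1.5-fold, 0 had p under 0.05 and the median was -0.11. Without the 2 libraries that stand apart the median was -0.03. The median level of the list was 49.5 cpm, and of all genes at 20 to 100 cpm 41.3% were placed within 1.5-fold. Slc2a5, the fructose transporter that marks microglia, was at 285, 363, 352 and 342 cpm on chow and 343, 307, 334 and 298 cpm on the WD. Its groups overlapped, and the 95% interval of the fold change was 0.817 to 1.12. Khk, the first enzyme of fructose breakdown, was at 26.2 to 27.2 cpm on chow and 17.2 to 28.2 cpm on the WD (log2 -0.29, interval -0.71 to 0.14). Among 22 insulin, IGF and leptin signalling genes the median was 0.03, and 1 was higher at p under 0.05. Igf1 had the lowest value of that list, -0.71 with an interval of -1.64 to 0.21.

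Mitochondrial genes showed opposite medians in their 2 genomes. The 13 mitochondrially encoded genes had a median of 0.13, with 11 positive values and 9 placed within 1.5-fold. Their median level was 366 cpm, and of all genes at 100 to 500 cpm 91.5% were placed within 1.5-fold. The 34 nuclear-encoded subunits of oxidative phosphorylation had a median of -0.07, with 20 negative values. mt-Nd2, a subunit of complex I, was at 197, 242, 179 and 207 cpm on chow and 208, 233, 287 and 299 cpm on the WD (0.32 ± 0.14, 95% interval 0.02 to 0.61). These groups overlapped. Without the 2 libraries that stand apart the medians were 0.04 and -0.01. The summed level of the mitochondrially encoded genes was 11404 to 12078 cpm on chow. On the WD it was 9930 cpm in library 1 and 12884 to 13286 cpm in the other libraries, on either side of the chow range. The mitochondrial share of counts differed by -0.08 percentage points between the diet means (two-sided exact permutation p = 0.943). The redox and NRF2 list (19 tested) had a median of -0.08 and the ER stress list (17 tested) one of -0.10, each with 0 genes at p under 0.05. Without the 2 libraries that stand apart these medians were -0.07 and -0.002.

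The lysosome list was bounded less closely than the homeostatic one. Of its 30 genes 24 were placed within 1.5-fold and 30 within 2-fold, the median was -0.04, and 20 values were negative. Its median level was 377 cpm, and of all genes at 100 to 500 cpm 91.5% were placed within 1.5-fold. Ctsf, a cysteine protease, was lower at p under 0.05 (129 ± 11.3 and 107 ± 9.01 cpm, -0.26 ± 0.12, 95% interval -0.51 to -0.01). Lamp1, a major protein of the lysosomal membrane, was at 916, 848, 903 and 868 cpm on chow and 796, 799, 803 and 762 cpm on the WD. Every WD library was lower, by a log2 fold change of -0.16 ± 0.08 (95% interval -0.33 to 0.01), and the gene was within 1.5-fold.

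Inflammatory genes did not move together. The 23 tested cytokine and NF-kappaB genes had a median of 0.02, with 12 positive and 11 negative values. Tnf was at 18, 41.6, 22.4 and 16.4 cpm on chow and 35.6, 17.5, 18 and 48.7 cpm on the WD, with an interval of -0.50 to 1.06 on the log2 scale. Il1b had -0.69 (-1.48 to 0.10). Casp1, the protease that matures interleukin-1, was higher at p under 0.05 (0.39 ± 0.17, 95% interval 0.01 to 0.77), with 67.0 to 72.0 cpm in 3 WD libraries and 114 cpm in WD library 4, without which the log2 fold change was 0.18. Medians were -0.02 for complement (16 tested), -0.01 for MHC presentation (17 tested) and -0.06 for TGF-beta signalling (14 tested), each with 0 genes at p under 0.05. B2m, the light chain of MHC class I, was placed within 1.5-fold, at 2400 to 3180 cpm on chow and 2785 to 3063 cpm on the WD.

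Among the 23 lists that are not markers of a cell type, the type I interferon response list had the highest median, 0.22 over 25 genes against 0.01 over all genes, with 18 positive values. Of these genes 3 were higher and 1 was lower at p under 0.05, against 2.02% and 1.98% of all genes. The FDR was passed by 0 of them. The summed level of the list overlapped between the diets, at 490 to 573 cpm on chow and 510 to 665 cpm on the WD. Usp18, a brake on interferon signalling, was at 1.54 to 4.17 cpm on chow and at 2.43 cpm in WD library 1 and 7.25 to 11.5 cpm in the other WD libraries (1.21 ± 0.48, 95% interval 0.18 to 2.24). Ifi44 was also higher (2.40 ± 1.06, 95% interval 0.14 to 4.71), from 0.0567 to 1.21 cpm on chow to 0.428 to 3.81 cpm on the WD, and Cmpk2, an interferon-induced nucleotide kinase, was lower (-1.58 ± 0.63, 95% interval -2.95 to -0.23). The median of the list stayed between 0.11 and 0.32 over 20 other settings.

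The clock list (17 tested, 12 positive) had a median of 0.15 and 0 genes at p under 0.05. The cell cycle list had the lowest median of those 23 lists, -0.73 over 19 mostly low genes, and it rested on chow library 2: without that library the median was 0.09. Mcm5, a subunit of the replicative helicase, was the member at p under 0.05 (5.31 ± 2.44 and 2.25 ± 0.733 cpm, -1.24 ± 0.46, 95% interval -2.23 to -0.24).

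**Figure D3:**
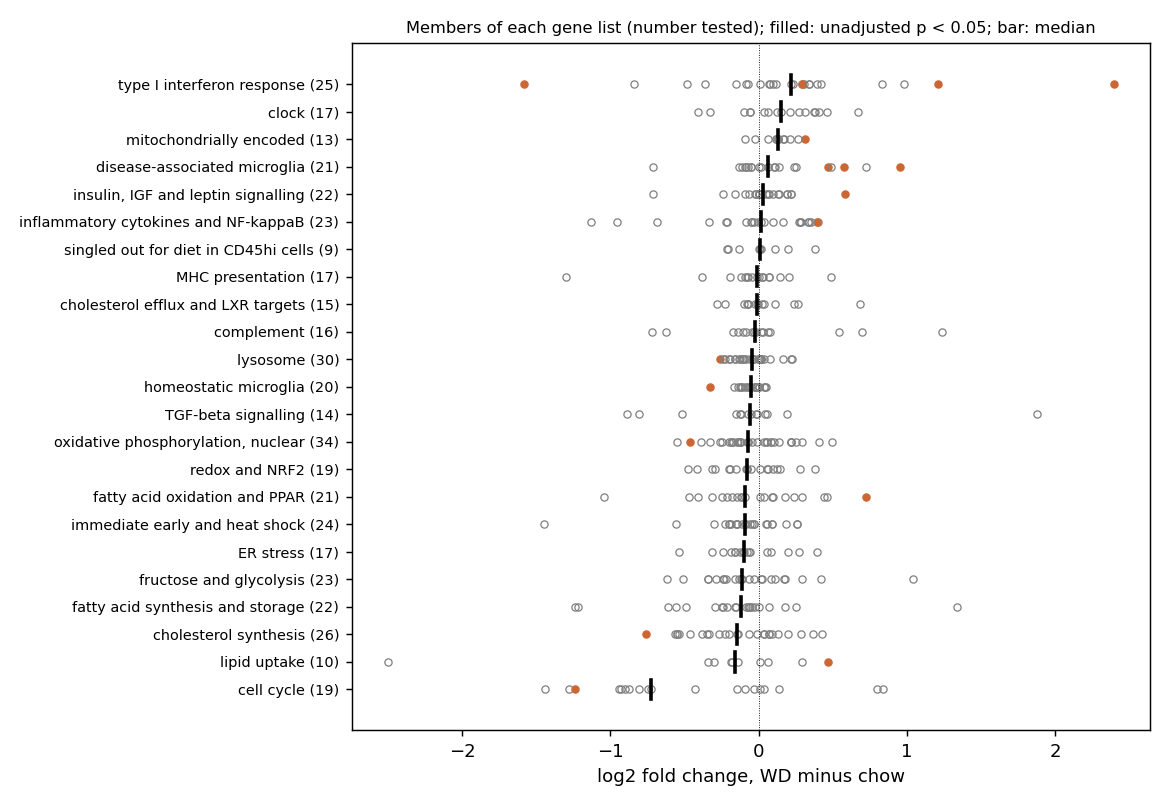
Log2 fold change of WD against chow (x) for each tested member of 23 gene lists (rows, number tested in brackets), with members at an unadjusted p under 0.05 filled and the median of each list as a bar. Medians lie between -0.16 and 0.22 except for the cell cycle list at -0.73, which was 0.09 without chow library 2, and 0 members passed an FDR of 0.05.

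The gene with the smallest p was Srp54a (ENSMUSG00000073079), which encodes the subunit of the signal recognition particle that binds signal peptides. It was at 14.5, 9.08, 18.1 and 12.8 cpm on chow and 2.14, 3.08, 0.656 and 1.92 cpm on the WD. The groups were far apart, with a log2 fold change of -2.81 ± 0.41 (95% interval -3.70 to -1.93, edgeR FDR 0.236, DESeq2 FDR 2.03e-06). Srp54a is one of 3 adjacent copies on chromosome 12, Srp54a, Srp54b and Srp54c (build GRCm38, GENCODE M21, plus strand, starting at 55080262, 55155104 and 55230168). The coding sequences of Srp54a and Srp54b, 1512 bases each, differ at 0 bases, and both differ from Srp54c at 6 bases. A stretch of the coding sequence is printed to show what a read could tell apart. It runs from coding base 906 to 965, 5′ to 3′ on the plus strand, from chr12:55102487-55102546 (Srp54a), chr12:55177547-55177606 (Srp54b) and chr12:55252791-55252850 (Srp54c), with the 3 bases of this stretch at which the copies differ in capitals.
Srp54a: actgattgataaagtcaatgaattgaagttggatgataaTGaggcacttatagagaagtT
Srp54b: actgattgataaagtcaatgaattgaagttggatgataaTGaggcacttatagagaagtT
Srp54c: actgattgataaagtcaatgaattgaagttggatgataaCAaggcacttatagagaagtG

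The transcript model that the files use for Srp54a is 1515 bases long and lies whole inside that of Srp54b, and all 1438 windows of 75 bases of its coding sequence occur in Srp54b. RSEM divides such reads between the copies by its estimate, and the Srp54a counts were fractional in all 8 libraries. Added together, the 3 copies were at 142, 96.3, 111 and 127 cpm on chow and 99.8, 119, 112 and 114 cpm on the WD. These sums overlapped (119 ± 19.6 and 111 ± 8.06 cpm, SD, n = 4, two-sided exact permutation p = 0.514). Srp54b was at 49.1 ± 5.34 cpm on chow and 59.2 ± 5.10 cpm on the WD (exact permutation p = 0.0857), so the difference in Srp54a is uncertain as one of that copy.

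Ddx52 (ENSMUSG00000020677; chromosome 11, 83942062 to 83963088), a DEAD-box RNA helicase of ribosome production, had no 75-base window in common with another transcript. It was at 55.2, 44.6, 59.4 and 59.3 cpm on chow and 28.8, 40.7, 27.2 and 26.1 cpm on the WD. The highest WD library was under the lowest chow library, and the log2 fold change was -0.83 ± 0.18 (95% interval -1.22 to -0.44, edgeR FDR above 0.99, DESeq2 FDR 0.0415). It ranged from -0.998 to -0.72 over the other settings.

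Nwd1, which encodes a protein with NACHT and WD-repeat domains, was at 3.96, 5.90, 0.536 and 5.85 cpm on chow and 0.50, 0.243, 0.0597 and 0.333 cpm on the WD. Chow library 3 lay just above the WD range, 2 libraries had 3 or fewer counts, and the log2 fold change was -3.82 ± 0.82 (95% interval -5.63 to -2.08, DESeq2 FDR 0.0221). Chi3l3 (Chil3 in GENCODE; chromosome 3, 106147554 to 106167564) encodes the chitinase-like protein Ym1, made by neutrophils, monocytes and some activated macrophages. It was at 55.5, 119, 49.7 and 83.3 cpm on chow and 35.3, 39.6, 17.9 and 33.2 cpm on the WD (-1.29 ± 0.28, 95% interval -1.90 to -0.68, DESeq2 FDR 0.00784). Its order over the chow libraries was that of the summed neutrophil markers given below, and over the WD libraries the orders were not the same, with both lowest in library 3. The part of neutrophil RNA in this difference was not tested.

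Of the 3 genes higher by DESeq2, Gm26581 is a long non-coding RNA on chromosome 10. It was at 2.81, 2.10, 1.94 and 3.92 cpm on chow and 16.9, 10.7, 6.62 and 11.7 cpm on the WD (2.09 ± 0.37, 95% interval 1.30 to 2.88, DESeq2 FDR 0.00242), and 79.2% of its 75-base windows occur in Gm10825. Kcnj13, an inward rectifier potassium channel of epithelia such as the choroid plexus, was at 3.71, 5.39, 4.22 and 4.24 cpm on chow and 14.1, 13.6, 5.85 and 23.4 cpm on the WD (1.69 ± 0.37, 95% interval 0.90 to 2.49, DESeq2 FDR 0.0415). It shares 623 of 1270 exonic bases with Gigyf2 on the opposite strand, and Gigyf2 had 126 cpm on chow and 112 cpm on the WD.

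The summed choroid plexus markers (Ttr, Folr1, Kl) were at 57.7, 238, 41.2 and 335 cpm on chow and 93.0, 197, 119 and 267 cpm on the WD. Over the WD libraries both this sum and Kcnj13 were highest in library 4, and over the chow libraries the sum was highest in library 4 and Kcnj13 in library 2. The part of choroid plexus RNA in the Kcnj13 difference was not tested. Gm10698, the last of the 7, is a pseudogene whose 75-base windows all occur in Tmed2. It had 0 counts in 3 chow libraries, 0.201 cpm in the other, and 2.96 ± 3.60 cpm on the WD.

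The remaining genes with the smallest p values, among those without overlap whose higher group averaged 10 cpm or more, were lower by -0.59 to -1.12 or higher by 0.44 to 1.90 on the log2 scale. Lower on the WD were Tfdp2, the dimerization partner of E2F factors (22.7 ± 5.04 and 11 ± 2.19 cpm), the orphan receptor Gpr165 (76.9 ± 9.83 and 51.0 ± 5.08 cpm), 1500011K16Rik (Mtln in GENCODE), Tcp11l2, Cdyl2, Ddx19a and Gm26759. Gm26759 shares 82.2% and Ddx19a 23.1% of windows with other transcripts, of Irf2bp2 and Ddx19b. Higher were Gm26780, Gm26823, 1810011H11Rik (Tmem273 in GENCODE; 38.2 ± 5.85 and 58.0 ± 7.47 cpm), Pced1a, 9430015G10Rik, Sfi1, Trim12a (101 ± 2.56 and 137 ± 19.4 cpm) and Gpc2. Of these Gpc2 has 46.8% of its windows in Gm43720. All of them had an edgeR FDR above 0.99.

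**Figure D4:**
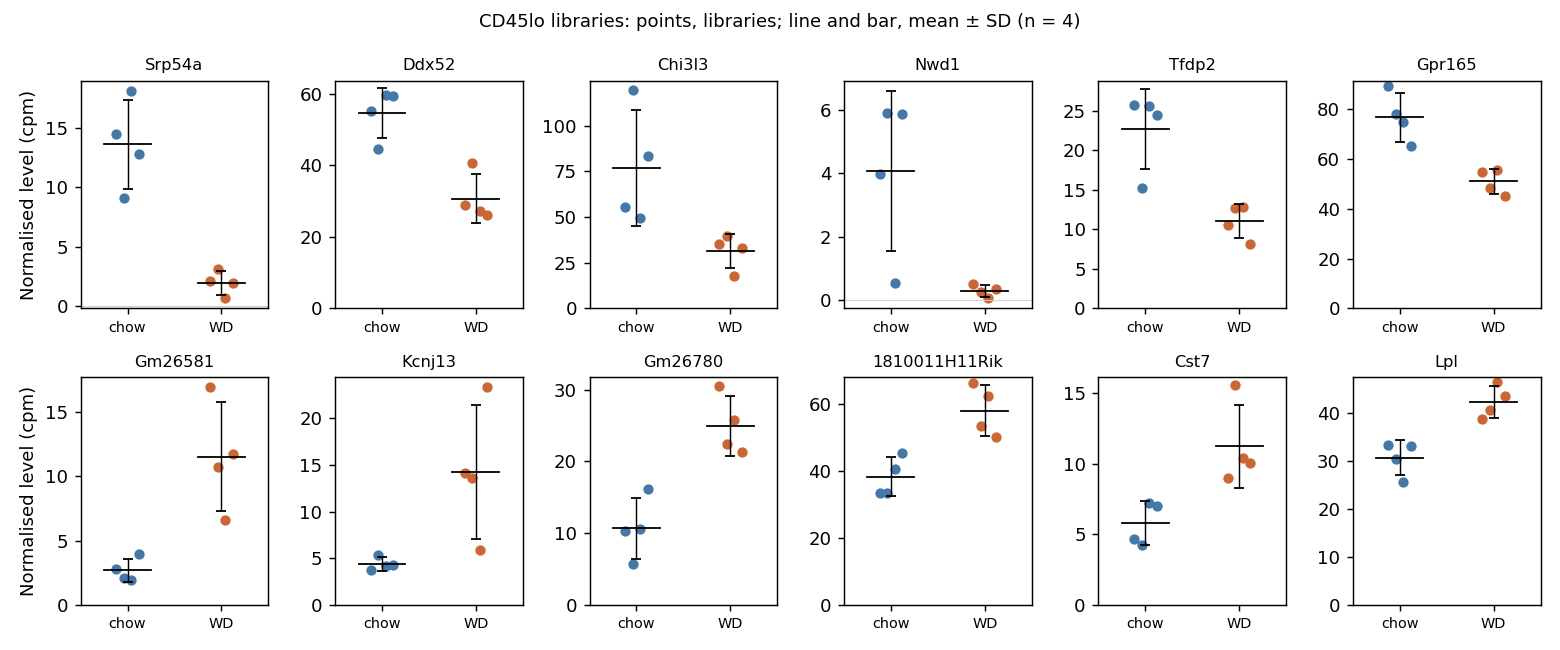
Normalised level (cpm, y) of 12 genes in each CD45lo library by diet, with points for libraries and lines and bars for mean ± SD (n = 4 per diet). In each of the 12 genes no WD library lies inside the chow range, which follows from the choice, since most were named for a lack of overlap. Of the 12 genes 0 passed an edgeR FDR of 0.05.

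Markers of other cells were compared because a sorted gate can carry a few of them, and in bulk RNA fewer cells of a type and less RNA per cell cannot be told apart. Neutrophil markers (9 of 10 tested, median log2 fold change -0.94, 8 negative) summed to 344, 835, 116 and 571 cpm on chow and 249, 220, 90.6 and 250 cpm on the WD. Chow libraries 1, 2 and 4 lay above the WD range and chow library 3 inside it. The granule genes Ngp (-1.41 ± 0.49, 95% interval -2.46 to -0.36) and Camp (-1.88 ± 0.64, 95% interval -3.25 to -0.50) and the calcium-binding S100a9 (-1.19 ± 0.45, 95% interval -2.17 to -0.22) were lower at p under 0.05. Without chow library 2 the log2 fold change of Ngp was -0.88. Without chow library 3 and WD library 4 it was -1.80, and the median of the neutrophil list was -1.56.

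Border-associated macrophage markers, of the macrophages along vessels and in the meninges, summed to 129, 136, 151 and 284 cpm on chow and 76.6, 182, 165 and 91.8 cpm on the WD (8 tested, median -0.40, 7 negative). Lyve1 was at 5.82, 8.40, 10.3 and 16.6 cpm on chow and 1.43, 0.405, 7.34 and 2.33 cpm on the WD (-1.82 ± 0.63, 95% interval -3.17 to -0.47), and Cbr2 had -1.17 ± 0.49 (95% interval -2.22 to -0.13), whereas Mrc1, the most abundant of them, had -0.50 (95% interval -1.12 to 0.12). Without chow library 4 the list's median was 0.02. Monocyte markers (6 tested, median 0.21, 4 positive and 2 negative) summed to 61.7 to 144 cpm on chow and 45.8 to 109 cpm on the WD. Chi3l3, which was lower, was the 1 of 6 that did not overlap. Ccr2 had 0.35 (95% interval -0.68 to 1.37).

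Most lymphocyte markers were at or near 0 counts, and the immunoglobulin gene Ighm was not. Cd3e, Cd3g and Ncr1 had 0 counts in all 8 libraries, Cd3d had at most 4 and Ms4a1 at most 1, and 0 of 5 NK markers passed the filter on low counts. Of the T cell list only Cd4 was tested (log2 -0.51), and of the B cell list 2 genes (median -0.25). Ighm, which encodes the heavy chain of IgM, was at 374, 381, 343 and 392 cpm on chow and 368, 291, 321 and 414 cpm on the WD, so that the groups overlapped (log2 -0.10, 95% interval -0.34 to 0.15). Cd79b, a part of the B cell receptor, was at 6.92 to 14.3 cpm on chow and 3.57 to 10.4 cpm on the WD. Markers of astrocytes, oligodendrocytes, endothelium, pericytes, dendritic cells, neurons and erythrocytes had medians of -0.36, 0.00, 0.25, -0.74, -0.19, -0.27 and -0.74, each over 3 to 5 tested genes whose summed levels overlapped between the diets. Without the 2 libraries that stand apart the astrocyte and oligodendrocyte medians were -0.79 and -0.29. The part of all these other cells in the diet differences was not tested.

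The diets overlapped in the principal components of the whole transcriptome. In a principal component analysis of the 8 libraries the first component held 22.5% of the variance, the diet means lay 41.1 units apart, and the libraries overlapped (two-sided exact permutation p = 0.400). That component was set by WD library 4 at 128 and the second (16.9%) by chow library 3 at 109. The median distance was 112 within chow, 124 within the WD and 110 between the diets. Without the 2 libraries that stand apart it was 102 within chow, 116 within the WD and 109 between the diets, so that pairs of unlike diet were then farther apart than chow pairs and closer than WD pairs. Without both libraries 0 genes passed the FDR, 514 had p under 0.05 and 3040 were placed within 1.5-fold, while genes without overlap, now of 3 libraries against 3, numbered 1192.

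**Figure D5:**
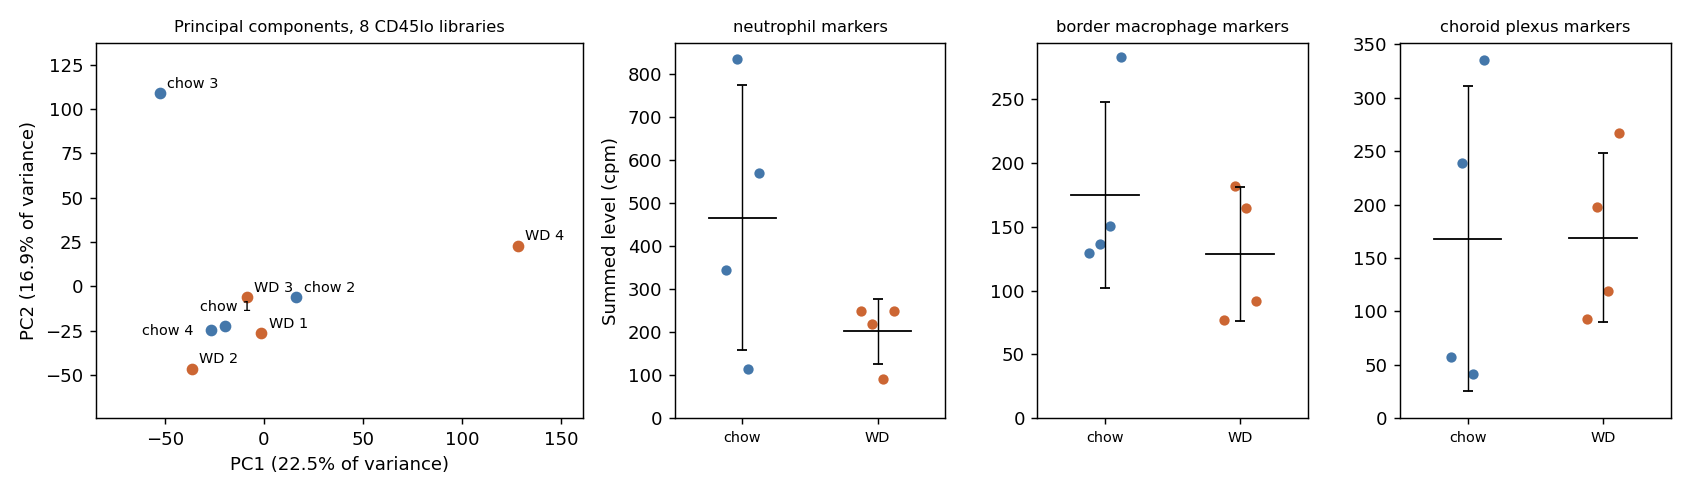
Left, first and second principal components of the 8 CD45lo libraries, with chow 3 and WD 4 away from the other 6. Right, summed level (cpm) of the markers of neutrophils, border-associated macrophages and the choroid plexus in each library, with mean ± SD (n = 4); in each panel the diets overlap.

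CD45hi cells gave much wider limits for the same contrast. Over 12732 genes tested in both cell types the median SD between libraries of one diet was 0.352 log2 cpm in CD45lo and 0.953 in CD45hi cells, and the biological coefficient of variation was 0.402 and 0.934. The median 95% interval reached 1.51-fold and 3.50-fold to either side. Of 13451 genes tested in CD45hi libraries alone, 1 (0.00743%) was placed within 1.5-fold, 0 passed the FDR and 843 had p under 0.05 (edgeR). The CD45hi groups hold 4 and 3 libraries, and the difference between the cell types in the number of bounded genes was not tested.

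The interaction of diet and cell type, tested over 14967 genes in all 15 libraries, was called for 1 gene (0.00668%). Trmt61a, the catalytic subunit of a tRNA methyltransferase, was at 20.2, 19.9, 36.7 and 43.3 cpm in chow and 28.5, 27.3, 35.1 and 30.1 cpm in WD CD45lo libraries. In CD45hi libraries it was at 50.8, 28.0, 37.6 and 18.6 cpm on chow and 0.0852, 0.544 and 1.04 cpm on the WD. The WD values were thus inside the chow range in CD45lo cells and below it in CD45hi cells, with log2 fold changes of 0.01 ± 0.25 and -5.89 ± 0.80 and an interaction of 5.88 ± 0.73 (edgeR FDR 0.0128). The call was lost without chow CD45lo library 1 or 2, with limma-voom, with the edgeR 4 form and with a replicate block. The main fit took CD45lo and CD45hi libraries as independent. The study split sorted CD11b+CD45+ cells into both gates, so CD45lo and CD45hi libraries may share an animal. Which libraries do so is not given by the labels. A list of 9 genes was taken from those that the study or earlier results of these data single out for diet in CD45hi cells, and so was picked on this series. In CD45lo cells it had a median of 0.01, 4 of the 9 (Psmb9, Usp10, Dnajc1 and Ctsd) were placed within 1.5-fold and all 9 within 2-fold. Trmt61a was among those within 2-fold only (95% interval of the fold change 0.689 to 1.47).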

How the data were processed

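Poly(A)-selected RNA-seq of sorted CD11b+ CD45lo and CD45hi brain cells was measured in 15 libraries. As deposited by the authors, each file holds the RSEM expected count and the TPM of 38924 genes. The reads were paired-end and mapped with Bowtie2 to mm10, and the submitters' processing notes name bcl2fastq 2.18.0.12 and RSEM 1.2.12. The gene annotation release, and the platform of each library, are not given in the sources used here. Expected counts divide reads among near-identical copies and are uncertain for such genes, and the kit does not mark strand.

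Expected counts were rounded. Genes that reached 1 cpm in 2 or more of the 8 CD45lo libraries were kept, normalised by TMM and fitted with diet as the only term by edgeR 4.0.16 (R 4.3.3), in the earlier quasi-likelihood form, with Benjamini-Hochberg adjustment. The interaction came from a fit of all 15 libraries. Cpm values are TMM-normalised, and log2 cpm for the principal components took a prior count of 2. TPM values were used as deposited. Replicates of one group gave a chi-square per degree of freedom of 21.5 to 48.3 and none was a repeat. The code was tested on simulated counts.

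Named genes were Itgam, Ptprc and the homeostatic list, the 10 higher and 10 lower genes of smallest p whose diets did not overlap and whose higher group averaged 10 cpm or more, the 2 most abundant members and the member of smallest p of each other list, genes called by an alternative, and the list taken from CD45hi cells. Other named genes were chosen after their values were seen, and the values of some genes are not reported here. Members and lists were chosen with earlier results of these data known. Sequences and positions are from GENCODE M21 (GRCm38). Alternatives were DESeq2 1.42.0, limma-voom (limma 3.58.1), other scalings and filters, the edgeR 4 form, robust spread, unrounded counts, replicate blocks and leaving out each library. Leaving out both libraries that stand apart was chosen after seeing the data.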

Additional observations from a re-analysis of the deposited data

Results flagged for a closer look

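A library was set down here when it lay far from the other 3 of its group, by a test that chance meets in about 1 of 20 groups. Of 270 group values of named genes 19 did so, and of 88 values of libraries and lists 8. WD library 4 accounts for 9 of these and chow library 3 for 4.

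In WD library 4, Olfml3 was at 971 cpm against 1118 to 1141 in the other WD libraries, the chaperone gene Canx at 694 against 821 to 841, Dnajc1 at 100.2 against 133 to 137 and the endothelial gene Pecam1 at 18.4 against 45.4 to 49.0. In the same library Casp1 was at 114 cpm against 67.0 to 72.0, the glycolytic Pfkp at 9.0 against 4.59 to 4.71 and Smad6, an inhibitor of BMP signalling, at 6.91 against 0.0811 to 1.21. The summed ER stress genes were at 6065 cpm there against 6610 to 6715, and the summed dendritic cell markers at 34.7 against 24.3 to 26.1.

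In chow library 3, Pcna was at 149 cpm against 117 to 121 in the other chow libraries, the heat shock gene Hspa1b at 34.7 against 3.39 to 8.06 and Gm10698 at 0.201 against 0, and the second principal component was 109 against -24.5 to -6.28. In chow library 2, Tfdp2 was at 15.2 cpm against 24.4 to 25.7, Sparc at 4081 against 3946 to 3963, and the 10 highest genes took 21.1% of counts against 18.5% to 18.8%. In chow library 4, Mrc1 was at 178 cpm against 76.5 to 85.0, the summed border-associated macrophage markers at 284 against 129 to 151 and Nfe2l2, which encodes NRF2, at 294 against 346 to 352. In chow library 1, Ddx19a was at 47.8 cpm against 35.2 to 36.5.

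Among the remaining WD libraries, library 3 had Tyrobp at 538 cpm against 497 to 504, the summed cell cycle genes at 159 against 185 to 187, and Cd4 at 1.79 against 0.0833 to 0.243, which is also the sum of the T cell markers tested. Library 2 had Selplg at 962 cpm against 1220 to 1249 and Scap, the sterol sensor, at 21.4 against 33.3 to 35.1. Library 1 had the mitochondrially encoded genes at 9930 summed cpm against 12884 to 13286.

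One gene had a diet effect that differed between the cell types, Trmt61a, with an interaction of 5.88 (log2, CD45lo minus CD45hi, edgeR FDR 0.0128). It was the only gene of 14967 called in that test, DESeq2 called 198 genes, and limma-voom called 0.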

How the results depend on the processing

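The count of genes past an FDR of 0.05 was 0 under every alternative tried except DESeq2, which called 7, and the smallest FDR under the others was 0.0541, in the fit with no filter beyond 1 count in 1 library. Genes at an unadjusted p under 0.05 numbered 556, and 123 with all 15 libraries in one fit, 1189 with no filter, 304 with a filter of 10 cpm in 4 or more libraries and 435 to 654 with 1 library left out. Genes placed within 1.5-fold numbered 3550, but 1 with all 15 libraries, which share a wider spread, 2359 without chow library 4, the lowest, and up to 3462 with 1 other library left out. Within 2-fold they were 8446, and 3493 with all 15 libraries and 7679 to 8258 with 1 left out. Genes without overlap numbered 343, and 211 under the stricter filter, 654 to 797 with 1 library left out and 1192 without both libraries that stand apart, where fewer libraries overlap less readily.

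The interaction was called for 1 gene, for 198 by DESeq2, and for 0 by limma-voom, by the edgeR 4 form and with either replicate block; with 1 library left out it was called for 0 to 6, and for 0 without chow CD45lo library 1 or 2. The cause of these differences was not tested. With a replicate block by the title numbers 408 CD45lo genes had p under 0.05, 0 passed the FDR and 2830 were within 1.5-fold. Whether the numbers pair the samples is not given by the labels. Same-numbered libraries deviated with correlations of -0.05 to 0.03, which cannot settle it. The diet means on the first principal component, refitted under each setting, lay 1.58 to 61.1 units apart (two-sided exact permutation p = 0.200 to 0.886). Of 2780 log2 fold changes of named genes under alternatives 2651 kept their sign and 7 gained a call, all by DESeq2, and of 737 list medians 693 kept their sign. With 4 libraries a diet, change in genes under 5 cpm was little limited.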
